A study of Rattus norvegicus with 6 samples.

Results

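The Cyp3a cytochromes P450 are haem enzymes of the hepatocyte endoplasmic reticulum that oxidise steroids and a wide range of drugs. Their transcripts were followed in the livers of rats given the antioxidant TBBC, a 4,4'-thiobis compound in which sulfur joins 6-tert-butyl-m-cresol to a copy of itself. The members were all array probes whose RefSeq accession belongs to Cyp3a23-3a1, Cyp3a2, Cyp3a18, Cyp3a62 or Cyp3a9. That gave 5 genes with 1 probe each, of 15645 genes that the array's accessions name. Of the 8 Cyp3a genes in the RefSeq gene table, Cyp3a73, Cyp3a2l1 and the pseudogene Cyp3a71-ps matched no probe by accession.

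Total RNA of liver was measured on 6 Cy3-labelled Agilent arrays, 1 array per animal, all from male Sprague-Dawley (Crl:CD(SD)) rats bought at an age of 5 weeks. The vehicle group (3 animals) received corn oil, and the TBBC group (3 animals) received the compound at 300 mg/kg/day. The series text gives 28 days and the treatment protocol 9 weeks, so the length of dosing is uncertain. In the question the labels pose, livers exposed to TBBC are set against livers exposed to the carrier oil alone. All vehicle arrays lay on 1 slide and all TBBC arrays on another, each scanned in a run of its own, so slide and treatment cannot be told apart.

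In liver, transcription of Cyp3a genes is driven by PXR (Nr1i2), a nuclear receptor that binds foreign chemicals and steroids, and by the related receptor CAR (Nr1i3). Each pairs with RXR (Rxra) on repeats of the half-site AGTTCA or AGGTCA in front of the target gene. The rat enzymes also differ by sex in adult animals: Cyp3a2 and Cyp3a18 are male-predominant, Cyp3a9 is female-predominant, and Cyp3a23-3a1 is the form best known for induction by dexamethasone and other PXR ligands. Catalysis needs electrons from the reductase Por, helped by cytochrome b5, and a supply of haem.

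Among the sequences before the Cyp3a genes, 4 of the 5 windows form pairs of more similar ones, and that of Cyp3a18 belongs to no such pair (50.4% to 54.6% identity with the others). The windows come from RefSeq on the assembly GRCr8, each running from 250 bases before to 50 bases after the annotated gene start on chromosome 12. The window of Cyp3a2 matched that of Cyp3a23-3a1 at 80.6% of aligned positions, and that of Cyp3a62 matched Cyp3a9 at 66.6%, against 49.8% to 55.1% for the other pairs. Both closest pairs are printed, since their members are compared in the results; capitals mark each half-site AGTTCA or AGGTCA, or its reverse complement TGAACT or TGACCT. They lie at chr12:14398754-14399053 (minus strand) for Cyp3a23-3a1, chr12:14343808-14344107 (minus strand) for Cyp3a2, chr12:21511513-21511812 (plus strand) for Cyp3a62 and chr12:21960111-21960410 (minus strand) for Cyp3a9.
Cyp3a23-3a1: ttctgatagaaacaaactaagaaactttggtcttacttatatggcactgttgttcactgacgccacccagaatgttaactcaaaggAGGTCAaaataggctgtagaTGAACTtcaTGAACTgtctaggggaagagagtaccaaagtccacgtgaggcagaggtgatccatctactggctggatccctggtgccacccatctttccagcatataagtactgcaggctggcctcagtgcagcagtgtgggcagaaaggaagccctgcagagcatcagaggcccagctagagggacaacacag
Cyp3a2: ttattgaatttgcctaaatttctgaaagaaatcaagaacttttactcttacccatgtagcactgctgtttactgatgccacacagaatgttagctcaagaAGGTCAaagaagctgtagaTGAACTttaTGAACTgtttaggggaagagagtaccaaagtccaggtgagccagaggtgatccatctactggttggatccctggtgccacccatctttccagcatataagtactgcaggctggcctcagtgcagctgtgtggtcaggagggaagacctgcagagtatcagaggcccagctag
Cyp3a62: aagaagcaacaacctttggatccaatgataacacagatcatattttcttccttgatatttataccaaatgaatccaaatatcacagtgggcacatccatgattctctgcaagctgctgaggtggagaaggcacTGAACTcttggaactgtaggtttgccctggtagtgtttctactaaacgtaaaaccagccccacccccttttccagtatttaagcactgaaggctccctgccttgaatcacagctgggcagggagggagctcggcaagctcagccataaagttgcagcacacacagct
Cyp3a9: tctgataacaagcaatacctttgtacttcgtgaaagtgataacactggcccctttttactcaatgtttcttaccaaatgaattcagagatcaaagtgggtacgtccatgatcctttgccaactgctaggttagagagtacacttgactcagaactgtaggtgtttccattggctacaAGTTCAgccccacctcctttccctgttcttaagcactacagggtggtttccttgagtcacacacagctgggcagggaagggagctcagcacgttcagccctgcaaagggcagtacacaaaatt

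At least 1 half-site was present in the windows of 5 of 5 members, against 27.9% of all 33469 windows in the table. Cyp3a23-3a1 and Cyp3a2 each held 3 half-sites, Cyp3a18 held 2, and Cyp3a62 and Cyp3a9 held 1 each. A direct repeat of half-sites spaced by 3 bases was found in 2 members: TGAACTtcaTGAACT in Cyp3a23-3a1, from 144 to 130 bases before the gene start, and TGAACTttaTGAACT in Cyp3a2, from 131 to 117 bases before it. Only 14 of the 33469 windows (0.0418%), from 11 genes, held such a repeat. Exact direct repeats spaced by 4 (0.0179% of windows) and exact everted repeats spaced by 6 (0.00598%) matched no member window. Repeats with a mismatched base in a half-site were not searched for, so their absence is not shown. Both strands were searched, and these matches describe letters in a 300-base window, not binding.

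With TBBC, the Cyp3a23-3a1 transcript was 6.58-fold higher, and it was the 1 member whose change passed the test. Measured differences of the other 4 ran the same way, from 1.36-fold for Cyp3a2 to 2.74-fold for Cyp3a9, without passing. In this bulk RNA, more cells of a type and more RNA per cell cannot be told apart. Among all 37222 probes tested, 1.78% were called higher, and 13.4% had every TBBC array above every vehicle array. Of the 5 members, 1 was called higher and none lower, while 4 had groups that did not overlap, also with quantile, median, spike-in and normexp settings. The median difference over the members was 1.02 on the log2 scale, against -0.05 over all probes tested. The tests are limma's moderated test with Benjamini-Hochberg adjustment over all probes and a threshold of 0.05, and a level is log2 of the processed signal relative to the 75th percentile of its array.

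**Figure D1:**
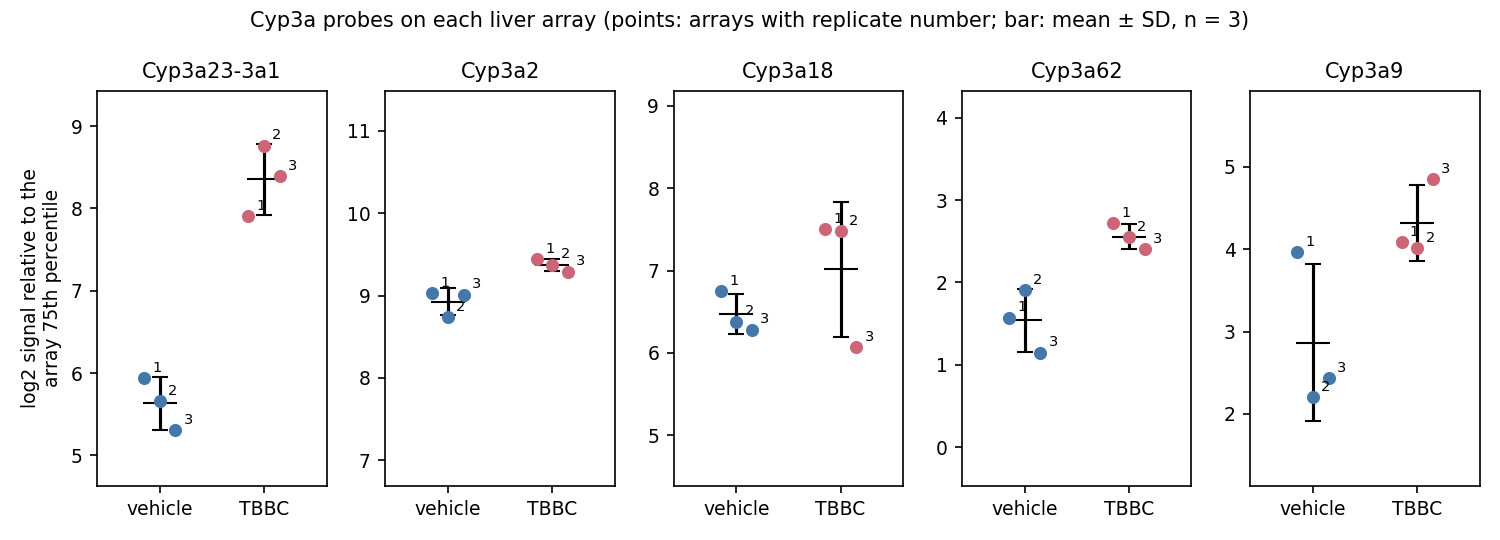
Level of each Cyp3a probe on each array, as log2 signal relative to the array's 75th percentile. Points are arrays with their replicate numbers, and bars give the mean ± SD (n = 3 per group); each panel spans the same number of log2 units but starts at its own level, so heights are not comparable between probes. The groups are apart in 4 panels, while TBBC replicate 3 lies below all vehicle arrays for Cyp3a18 with this scaling.

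Cyp3a23-3a1 (NM_013105, gene ID 25642), the inducible steroid and drug hydroxylase of the family, stood at 5.94, 5.66 and 5.30 on vehicle replicates 1 to 3. On TBBC replicates 1 to 3 it stood at 7.91, 8.76 and 8.39. Every TBBC array was thus well above every vehicle array, and the lowest gap between the groups was larger than the range within either. The level went from 5.63 ± 0.32 (SD, n = 3) to 8.35 ± 0.43 (SD, n = 3). This is a log2 difference of 2.72 ± 0.26 (SE; 95% confidence interval 2.10 to 3.34; limma adjusted p = 0.00894), or 6.58-fold with an interval of 4.29 to 10.1. Larger differences were seen at 0.183% of all probes tested, and Cyp3a23-3a1 ranked 22 among the risers of 11235 named genes. The call held in all 18 alternative settings, at differences of 2.51 to 2.94 (adjusted p 0.0019 to 0.0414). In processed signal units the probe read 35526, 23441 and 23618 on the vehicle arrays and 147717, 271770 and 214243 on the TBBC arrays, with no array flagged as saturated.

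Cyp3a2 (NM_153312, gene ID 266682), a testosterone hydroxylase of the adult male liver, was at 9.03, 8.74 and 9.01 in vehicle animals and at 9.45, 9.38 and 9.29 in TBBC animals. The TBBC arrays were all higher, but the lowest of them was close to the highest vehicle array. Means were 8.92 ± 0.16 and 9.37 ± 0.08 (SD, n = 3 each). The log2 difference of 0.45 ± 0.13 (SE; interval 0.15 to 0.75; 1.36-fold) did not pass (limma unadjusted p = 0.00994, adjusted p = 0.108), and 9.56% of all probes had a larger one. The spots were bright, at 23.1% to 52.9% of the scanner's saturation level. After another background correction, normexp, the difference was 0.55 and passed (adjusted p = 0.0394). Over the 18 alternatives it ran from 0.35 to 0.67.

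Cyp3a18 (NM_145782, gene ID 252931), likewise a male-predominant steroid hydroxylase, was at 6.74, 6.38 and 6.28 in vehicle animals and at 7.50, 7.47 and 6.07 in TBBC animals. TBBC replicates 1 and 2 were above all vehicle arrays, whereas TBBC replicate 3 was the lowest of all 6 arrays (vehicle replicate 2 was the lowest under spike-in scaling). Cyp3a18 was the 1 member whose groups overlapped, and its SD was 0.24 in vehicle and 0.82 in TBBC animals. The log2 difference of 0.55 ± 0.39 (SE; interval -0.40 to 1.49) did not pass (limma adjusted p = 0.433). It moved most with TBBC replicate 3: without that array the difference was 1.02 (adjusted p = 0.0827), while it was 0.30 without TBBC replicate 1 and 0.32 without TBBC replicate 2.

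Cyp3a62 (NM_001024232, gene ID 170509), a form also present in intestine, was at 1.57, 1.91 and 1.15 in vehicle animals and at 2.72, 2.55 and 2.41 in TBBC animals. The groups were clearly apart, and the TBBC arrays lay closer together than the vehicle arrays. Means were 1.54 ± 0.38 and 2.56 ± 0.16 (SD, n = 3 each). The log2 difference of 1.02 ± 0.21 (SE; interval 0.52 to 1.51; 2.02-fold) fell just short of the threshold (limma adjusted p = 0.0552), and 2.13% of all probes had a larger one. It passed in 6 of 18 alternative settings, among them normexp (0.88, adjusted p = 0.0338) and scaling on spike-in controls (1.24, adjusted p = 0.0107). Over all 18 the adjusted p ran from 0.0107 to 0.158.

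Cyp3a9 (NM_147206, gene ID 171352), a female-predominant member, was at 3.96, 2.20 and 2.43 in vehicle animals and at 4.09, 4.02 and 4.85 in TBBC animals. Vehicle replicate 1 was far above the other vehicle arrays and just below the lowest TBBC array, and TBBC replicate 3 was the highest. Means were 2.87 ± 0.96 and 4.32 ± 0.46 (SD, n = 3 each). Although its difference was second in size among the members, at 1.45 ± 0.48 (SE; interval 0.29 to 2.61; 2.74-fold), it did not pass (limma adjusted p = 0.149). Leaving out vehicle replicate 1 gave 2.00 (adjusted p = 0.0663), and over the 18 alternatives the adjusted p ran from 0.0663 to 0.318.

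**Figure D2:**
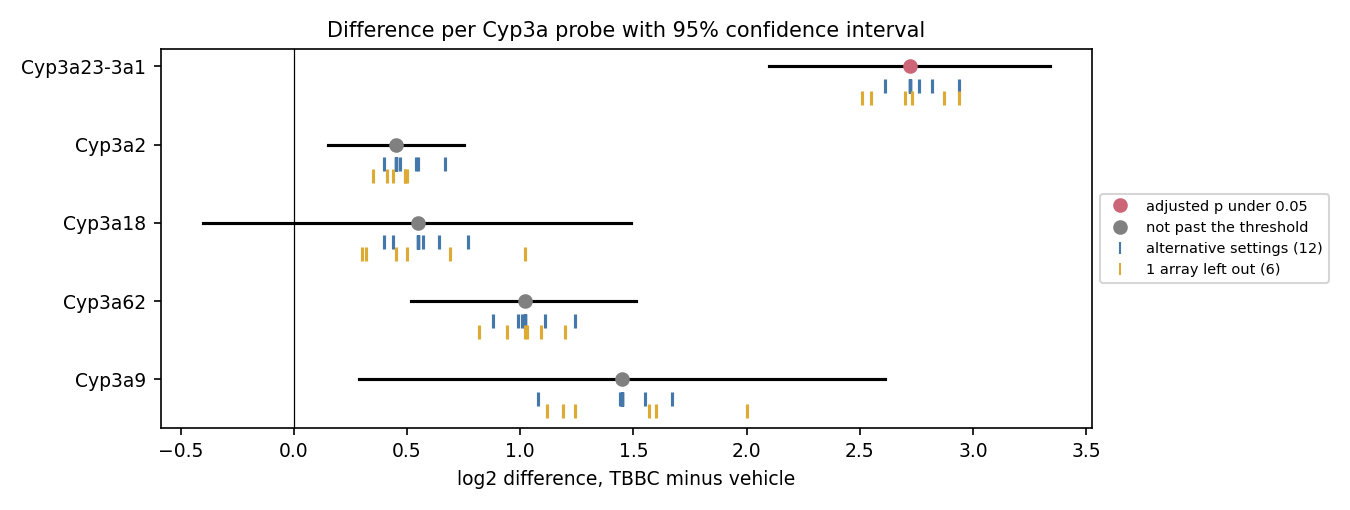
Log2 difference of each Cyp3a probe, TBBC minus vehicle. Large points are the estimates with their 95% confidence intervals, upper ticks the 12 alternative settings with all arrays and lower ticks the 6 values with 1 array left out. All 90 ticks lie above 0, and only the interval of Cyp3a18 crosses it.

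**Figure D3:**
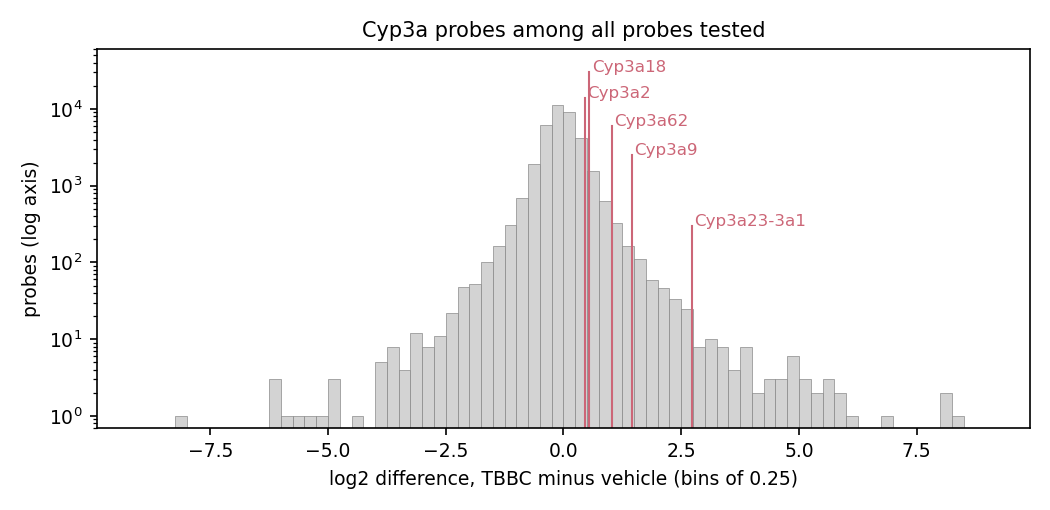
Distribution of the log2 difference over all 37222 probes tested, in bins of 0.25 with a log count axis. Lines mark the 5 Cyp3a probes: Cyp3a23-3a1 lies in the sparse right tail at 2.72, and Cyp3a2 and Cyp3a18 lie near the bulk at 0.45 and 0.55.

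The unequal size of the changes was tested within arrays, by subtracting 1 member's level from another's on each array and comparing these differences between groups. With 3 against 3 arrays, the exact two-sided permutation test cannot give a p below 0.1. The change of Cyp3a23-3a1 exceeded that of Cyp3a2 by 2.27, of Cyp3a18 by 2.17, of Cyp3a62 by 1.70 and of Cyp3a9 by 1.27 on the log2 scale. Each of these 4 pairs was at the smallest possible value (exact permutation p = 0.1, adjusted over 10 pairs 0.25). The closest pair by promoter sequence, Cyp3a23-3a1 and Cyp3a2, both hold the direct repeat spaced by 3, and their measured changes lay 2.27 apart. No pair could pass with so few arrays, so an unequal response was not established. Binding of either gene's RNA to the other's probe was not assessed. Differences between the changes of the other 4 members were smaller. They were widest between Cyp3a2 and Cyp3a9 (-1.01, exact permutation p = 0.3, adjusted 0.5) and narrowest between Cyp3a2 and Cyp3a18 (-0.10, exact permutation p = 1, adjusted 1).

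The Cyp3a genes lie in 2 clusters on chromosome 12 in the gene order of GRCr8. Cyp3a18, Cyp3a2 and Cyp3a23-3a1 share the first with the 3 family genes that no probe named, while Cyp3a62 and Cyp3a9 form the second, with 110 other coding genes between the clusters. Genes next to the clusters were examined after the Cyp3a values had been seen. Of all 37222 probes tested, 8595 had a limma unadjusted p under 0.05. Of 14 measured neighbours, none did and none passed (limma), with differences from -0.19 to 0.59 and a lowest adjusted p of 0.241. Of these, Spry3 and the vesicle fusion gene Vamp7 lie inside the second cluster, between Cyp3a62 and Cyp3a9, and differed by -0.12 (limma adjusted p = 0.785) and -0.01 (limma adjusted p = 0.962).

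No receptor or factor that drives Cyp3a transcription passed the test at the RNA level. Of 17 tested regulators, none was called in either direction by limma. At a limma unadjusted p under 0.05, 0 were higher and 4 lower. Of all 37222 probes tested, 8595 were under that value in either direction, so the 4 are not read as a fall. The median difference of the regulators was -0.22, against -0.02 over all named genes. Nr1i2, which encodes PXR, was at 5.74, 5.97 and 6.04 in vehicle and at 5.64, 6.15 and 5.89 in TBBC animals, so its groups overlapped throughout. Its difference was -0.03 ± 0.16 (SE; interval -0.42 to 0.36; limma adjusted p = 0.937), a value too near 0 to carry a sign, as the sign turned with the scaling. Nr1i3, which encodes CAR, differed by 0.13 ± 0.13 (interval -0.18 to 0.44; limma adjusted p = 0.565). Rxra, the partner of both, differed by -0.22 ± 0.16 (interval -0.60 to 0.16; limma adjusted p = 0.44), and by 0.00 under spike-in scaling. The widest difference in the list was that of Nr0b2, the corepressor SHP. It was at 6.80, 5.89 and 5.47 in vehicle and at 4.87, 3.72 and 3.92 in TBBC animals, without overlap (-1.89 ± 0.42; limma adjusted p = 0.0674). Nr0b2 was named for its size after its value was seen.

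Many other targets of PXR and CAR, among them Cyp2b1 and Abcc3, were higher with TBBC. Of 21 tested, 14 rose, none fell and 7 did not pass by limma, with a median difference of 1.22. For Gsta2, a glutathione transferase among those that did not pass, 1 of its 2 probes did (1.00 and 1.48, the brighter at limma adjusted p = 0.0998). Of all 11235 named genes, 1.97% were called higher and 1.34% lower. The list was chosen with earlier results of these data known, and whether PXR or CAR caused these rises was not tested. By role, 3 of 5 cytochromes, 6 of 8 conjugating enzymes, 2 of 5 transporters and 3 of 3 other enzymes rose. Abcc3, an efflux pump for glucuronides, rose by 4.96 ± 0.21 (SE; 31.1-fold, limma adjusted p = 0.000558). Sult2a6, a hydroxysteroid sulfotransferase, rose by 4.91 ± 0.35 (limma adjusted p = 0.00301). Gstm3, a glutathione transferase, rose by 4.69 ± 0.25 (limma adjusted p = 0.000935), and Cyp2b1, the standard CAR-induced cytochrome, by 4.63 ± 0.22 (24.7-fold, limma adjusted p = 0.000749). Each of these values is larger than the 2.72 of Cyp3a23-3a1; whether the changes differ was not tested. Cyp2c7, a cytochrome of the same list, stood at 0.00 ± 0.15 (limma adjusted p = 0.991).

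Several electron donors to cytochromes P450 were higher in TBBC livers alongside Cyp3a23-3a1. The 6 genes listed under electron donors include Pgrmc1 and Pgrmc2, counted there as partners of cytochromes P450. Of these 6 genes, 4 rose and none fell by limma, with a median of 0.71. Of all 11235 named genes, 1.97% were called higher. Por, the reductase that passes electrons from NADPH to Cyp3a enzymes, was at 3.31, 2.91 and 3.16 in vehicle and at 4.37, 5.36 and 5.09 in TBBC animals, well apart. It rose by 1.81 ± 0.26 (SE; 3.51-fold, limma adjusted p = 0.0269). The cytochrome b5 genes Cyb5b and Cyb5a rose by 1.04 ± 0.14 and 0.75 ± 0.12 (limma adjusted p = 0.0243 and 0.034), although a dimmer probe of Cyb5b gave 0.36. Pgrmc1, a haem-binding partner of cytochromes P450, rose by 0.66 ± 0.11 (limma adjusted p = 0.0369). Each taken by its brightest probe, none of 8 genes of haem synthesis and none of 3 of haem breakdown passed by limma. For Blvrb, a biliverdin reductase, 1 of 3 probes did pass (differences of 0.62 to 0.80), though the brightest did not (0.62, limma adjusted p = 0.0685). At a limma unadjusted p under 0.05, 2 were higher and 1 lower in synthesis, and 2 were higher in breakdown. Of all 37222 probes tested, 8595 were under that value in either direction. Alas1, the first enzyme of haem synthesis, differed by 1.49 ± 0.33 without passing (limma adjusted p = 0.066).
Over these lists and that of growth hormone and sex-biased genes, 19 of 74 tested genes were called, 8 to 12 with any 1 array left out. The calls of Cyb5a, Cyb5b and Pgrmc1 were lost without any 1 of the 6 arrays, and that of Por without any except TBBC replicate 1.

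**Figure D4:**
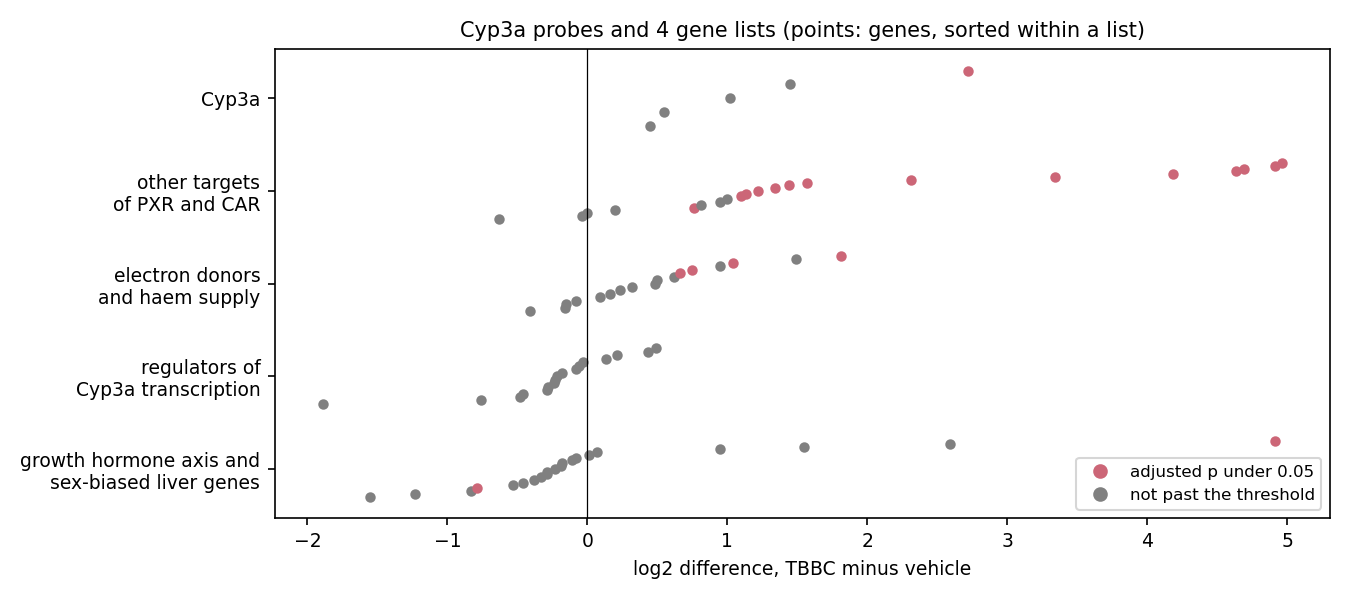
Log2 difference, TBBC minus vehicle, of the 5 Cyp3a probes and of every tested gene in 4 lists, 1 point per gene, sorted by size within a list. Red points passed limma's adjusted p threshold of 0.05 and grey points did not: 1 of 5 Cyp3a genes, 14 of 21 other PXR and CAR targets, 4 of 17 electron donor and haem genes and 0 of 17 regulators are red.

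Because several rat Cyp3a genes follow the growth hormone pattern of the sexes, genes of that axis and other sex-biased liver genes were set beside them. Of 21 tested, 1 rose and 1 fell by limma, while 1.97% of all 11235 named genes were called higher and 1.34% lower. Sult2a6, which also stands among the PXR and CAR targets, rose, and the growth hormone signal transducer Stat5a fell by 0.79 ± 0.12 on the log2 scale (limma adjusted p = 0.0291), a call lost without any 1 array. The 3 probes of Cux2, a gene of the axis, disagreed without any passing (-0.11 for the brightest, 3.18 for the highest). None of 7 male-predominant genes passed by limma (1 lower at an unadjusted p under 0.05, median -0.29). Of 4 female-predominant genes 1 passed (4 higher at an unadjusted p under 0.05, median 2.07). Besides Sult2a6, Cyp2a1 (0.95) is also among the PXR and CAR targets, so the 2 lists are not separate. Of all 37222 probes tested, 8595 had a limma unadjusted p under 0.05 in either direction.

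TBBC replicate 3, the array where Cyp3a18 was lowest and Cyp3a9 highest, also stood at the end of these sex-biased lists, an observation made after the values were seen. All 7 male-predominant genes had their lowest value of the 6 arrays there, as did 18.6% of all 11235 named genes. Of the 4 female-predominant genes, 3 had their highest value there, as did 14.4% of named genes. These shares are not a like background. All 4 female-predominant genes were on average higher with TBBC and none of the 7 male-predominant genes was. Such extremes were thus likelier on any TBBC array than for named genes at large. Cyp2c11, the main male-specific cytochrome, was at 8.62, 8.52 and 8.04 in vehicle and at 8.58, 7.74 and 5.17 in TBBC animals, so that TBBC replicate 3 alone was far below the rest. Cyp2c12, its female-specific counterpart, was at 3.95, 3.88 and 3.02 in vehicle and at 4.66, 4.92 and 5.91 in TBBC animals, highest on TBBC replicate 3. Under spike-in scaling 4 of the 7 male-predominant genes, and under quantile, median and normexp settings all 7, were lowest on that array. The male-predominant Cyp3a2 was at 9.29 there, its lowest TBBC value with the 75th percentile as the scale, but still above all vehicle arrays. The part of these genes' pattern in the Cyp3a18 and Cyp3a9 values was not tested.

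Across the 6 arrays, the named genes whose centred profiles lay nearest to each member were found by the root mean square (RMS) log2 difference over 11217 genes. Nearest to Cyp3a23-3a1 were Cyp2b21 (RMS 0.193), a cytochrome, then Msmo1 (RMS 0.213) and Tm7sf2 (RMS 0.272), both enzymes of cholesterol synthesis. For Cyp3a62 they were Enc1 (RMS 0.13), Ak1 (RMS 0.141) and Slco1a4 (RMS 0.15), the last an uptake transporter in the list of PXR and CAR targets. For Cyp3a2, whose profile is nearly flat, Gpatch11, Gnb1 and Laptm4a came nearest (RMS 0.0412, 0.042 and 0.0454). The glycolytic kinase Hk2 (RMS 0.311), Cabcoco1 (RMS 0.351) and Lyzl6 (RMS 0.384) came nearest to Cyp3a9. For Cyp3a18 they were Asb5 (RMS 0.185), the alkaline phosphatase Alpl (RMS 0.189) and C4h12orf60 (RMS 0.209). Neighbours of Cyp3a9 thus lay farther from it than those of any other member. The 3 genes nearest to Cyp3a23-3a1 were themselves higher with TBBC, with log2 differences of 2.95 for Cyp2b21, 2.66 for Msmo1 and 2.22 for Tm7sf2. They were picked for profiles like that of Cyp3a23-3a1 on the same arrays. Their rise therefore follows from the choice and is not a separate result.

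Each array carried 61537 probes other than controls, of which 36919 to 39386 were well above background. All 5 Cyp3a probes were above background on all 6 arrays, and the number of arrays limits the precision. As a check of the labelled tissue, 8 of 8 hepatocyte markers were above background on all arrays. Their summed scaled signal was 3160 to 3520 in vehicle and 2830 to 2910 in TBBC animals, and Apoa1 fell by 1.00 ± 0.19 on the log2 scale (limma adjusted p = 0.0488). Of 5 cholangiocyte markers, Epcam rose by 1.83 ± 0.21 (limma adjusted p = 0.0149), 3 were above background on all arrays, and the sum was 1.13 to 1.30 in vehicle and 2.77 to 4.15 in TBBC animals. That sum was mostly Epcam, with mean levels of -0.29 in vehicle and 1.54 in TBBC animals. Krt19, the next brightest, was at -2.46 and -2.01. Krt7 (-0.33), Krt19 (0.44), Cftr (1.16) and Spp1 (0.25) did not pass by limma. Of 7 stellate markers Rgs5 rose by 0.95 ± 0.12 (limma adjusted p = 0.0207), with sums of 9.68 to 11.3 and 8.63 to 12.0. The sums of Kupffer markers (6 tested, 43.2 to 96.8 against 48.9 to 100) and sinusoidal endothelium (3 tested, 25.5 to 45.6 against 32.3 to 37.5) overlapped. So did those of enterocyte markers (4 summed, 2 of them tested, 2.01 to 2.88 against 1.84 to 2.38, Vil1 above background on no array). The lymphocyte sum was lower with TBBC (5 summed, 4 of them tested, 2.44 to 2.72 against 1.69 to 2.31, Cd3e above background on no array). No lymphocyte marker passed the test by limma. At a limma unadjusted p under 0.05, 1 was lower, while 8595 of all 37222 probes were under that value in either direction. The part of these cell types in the Cyp3a values was not tested.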

How the data were processed

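Liver RNA of 3 vehicle and 3 TBBC animals was measured on 1-colour arrays. The deposited files are scanner output: per the file headers, the authors used Agilent Feature Extraction 10.7.1.1 (10.7 per the submitters' processing notes), which writes a background-subtracted processed intensity per spot on a linear scale. The deposited value table holds the same intensity times 1 constant per array, linear and not centred by gene (column medians 0.1012, 0.1077 and 0.1033 for vehicle and 0.0977, 0.0972 and 0.0974 for TBBC replicates 1 to 3). It served as an alternative.

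Here each processed intensity was divided by the 75th percentile of its array, controls excluded, and put on the log2 scale. Every probe was kept on its own. After 25 probes flagged as outliers were dropped, a probe was tested if 1 group or both had it well above background in every animal (37222 probes). The two-sided test was limma's (version 3.58.1, R 4.3.3, functions lmFit and eBayes) without covariates, with Benjamini-Hochberg adjustment and a threshold of 0.05. Differences carry limma's moderated standard error. The labels speak of separate animals, so p-values measure the spread between animals within a group, and a shift shared by a whole group's slide is not in it.

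Unversioned RefSeq accessions in the gene table of GRCr8 named 28206 probes (45.8%). The headers give rn4 for the array design, so no probe coordinates are printed. Probe sequences were not used here, so RNA of 1 Cyp3a gene binding another's probe was not assessed, and each member's value is uncertain to that extent. In lists, a gene is represented by its kept probe with the highest mean. The lists name each gene once per role; text names up to 4 genes per list and direction past the threshold by size, Nr1i2, Nr1i3, Rxra and Por always, and the 3 nearest profiles per member, and other genes named were singled out after their values were seen. Members and lists were chosen with earlier results of these data known. Promoter windows were searched on both strands for exact half-sites only and aligned with Biopython 1.88.

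Residual correlations of same-numbered arrays were 0.005, -0.032 and 0.150, so the numbers were not taken to pair animals. Alternatives were quantile normalization, median centring, spike-in scaling, normexp (offset 50) on median signals, the value table, filters, trend and robust eBayes, array weights, a replicate block, gene summaries and leaving out each array.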

Additional observations from a re-analysis of the deposited data

How the results depend on the processing

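All 5 Cyp3a differences stayed above 0 in 18 of 18 alternatives (90 of 90 values), and the call of Cyp3a23-3a1 held in each. The number of Cyp3a probes called was 1, and it stayed at 1 to 1 with each array left out. It was 2 with median centring, spike-in scaling, only probes above background on all 6 arrays, trend and robust eBayes or array weights, where Cyp3a62 passed at 1.11, 1.24, 1.02, 1.02 and 1.01 (limma adjusted p = 0.0369, 0.0107, 0.0492, 0.0353 and 0.0338). It was 3 with normexp, where Cyp3a62 passed at 0.88 (limma adjusted p = 0.0338) and Cyp3a2 at 0.55 (limma adjusted p = 0.0394). Of all probes, 1198 were called, against 2103 with normexp, 264 with no filter on dim probes, 298 with the replicate block and 124 to 491 with each array left out. Of the 19 called list genes, 8 kept the call in all 18 settings (Abcc3, Sult2a6, Gstm3, Cyp2b1, Cyp2b2, Ugt2b1, Ephx1 and Ces2c). The lists' count was 10 with no filter, 12 with the replicate block and 8 to 12 with each array left out. The block changed no Cyp3a call. Outside the Cyp3a genes, the call of Epcam was lost without vehicle replicate 1, that of Rgs5 without any 1 array and that of Apoa1 without any except TBBC replicate 3. Over all 18 settings, Epcam lost its call in 2, Rgs5 in 8 and Apoa1 in 11. The replicate block lost each of these calls, and quantile, median and spike-in scaling lost that of Apoa1. Nr1i2 turned sign under median centring (0.07), spike-in scaling (0.19), normexp (0.03), array weights (0.03) and the mean of a gene's probes (0.08), and ran from -0.15 to 0.10 with each array left out; Rxra was at 0.00 with spike-in scaling. The difference between the changes of Cyp3a2 and Cyp3a18 was 0.11 with normexp and -0.53 to 0.13 with each array left out, and that of Cyp3a9 and Cyp3a62 was -0.08 to 0.97. The cause of these shifts was not tested. Higher calls were 55.4% of all calls, 72.8% with median centring and 82.5% with spike-in scaling, which moved the median of all probes from -0.05 to 0.17. A slide block could not be fitted, as each slide holds 1 group. Signal over background limits no Cyp3a value.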
